A study of Homo sapiens with 2 samples.

Results

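Messenger RNAs of 8 human genes, VMA21, TIMP2, DICER1, CCND1, PAK1, PAK2, GSK3B and FHL1, are described elsewhere as polyadenylation targets of NUDT21. They were picked by name from the GENCODE 44 annotation and are 8 of its 20033 protein-coding genes on chromosomes 1 to 22, X and Y. The genes were examined in NUDT21 CUT&Tag peak lists from J.gamma1, a derivative of the Jurkat leukemia line that lacks phospholipase C gamma 1 and that the labels give as T-ALL (T-cell acute lymphoblastic leukemia) cells. The series holds 1 group of 2 biological replicates, profiled with 1 antibody against NUDT21 and with no treatment named, and no other line, knockdown or control sample was analysed here. In CUT&Tag an antibody guides a transposase to chromatin, so the DNA next to the bound protein is cut out and sequenced. The question asked of the lists was whether NUDT21 peaks lay at the promoters of these genes, at their 3′ ends, or at both.

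NUDT21 is the RNA-binding subunit of cleavage factor Im (CFIm), which works with CPSF6 or CPSF7 in the complex that cuts and polyadenylates pre-mRNA. It recognises UGUA in the RNA upstream of a polyadenylation site and favours use of sites far from the stop codon. When NUDT21 is depleted, many transcripts switch to a nearer site and carry a shorter 3′ UTR. CUT&Tag does not read this contact with RNA, but the DNA on which the protein lies, directly or through other molecules.

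All 8 genes carried UGUA, written as TGTA in the DNA, somewhere in the 3′ UTR of their Ensembl canonical transcript, and one site of each is shown because this is the motif that NUDT21 is known to bind in RNA. Each line gives 30 bases of the hg38 transcript strand, 5′ to 3′, around the TGTA nearest the annotated 3′ end that had 13 bases on both sides. Capitals mark every TGTA in the window.
VMA21 (chrX:151409311-151409340, plus strand): taattTGTAtaaaTGTAccatctgatgtca
TIMP2 (chr17:78853019-78853048, minus strand): gtctctgatgcttTGTAtcattcttgagca
DICER1 (chr14:95086251-95086280, minus strand): ttttTGTAataatTGTAgccaagtaaatct
CCND1 (chr11:69654388-69654417, plus strand): cccagcaccaacaTGTAaccggcatgtttc
PAK1 (chr11:77322598-77322627, minus strand): atgctctcggctaTGTAgcagcttttgatt
PAK2 (chr3:196832413-196832442, plus strand): tgacattaactgcTGTAttttgactttgtt
GSK3B (chr3:119821439-119821468, minus strand): actggatgaTGTATGTAaacatgttatgtc
FHL1 (chrX:136211307-136211336, plus strand): tctaacgtttcagTGTAtccttacagaaat

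A TGTA close to the 3′ end is common in the annotation. In the last 100 bases of the canonical transcript, on the transcript strand, TGTA was found in 5 of the 8 (VMA21, TIMP2, DICER1, CCND1 and FHL1), against 51.9% of all 20033 genes. VMA21 had 6 copies there, DICER1 had 2 and the other three had 1. In PAK2, GSK3B and PAK1 the sites shown lay 222, 135 and 598 bases before the end. Counted over the whole canonical 3′ UTR, the density ranged from 2.39 TGTA per kb in PAK1 to 8.59 in VMA21, around a median of 4.71 over the genes with a 3′ UTR. GSK3B, with 44 copies in 5467 bases, had the most. The polyadenylation signal AATAAA stood in the last 50 bases of 6 of the 8, against 63.5% of all genes, and VMA21 had the variant ATTAAA without it, as did 13.9%. PAK2 had neither there, as did 22.6% of all genes. Long 3′ UTRs were common among the 8, with lengths of 5467 bp in GSK3B, 4306 bp in VMA21, 4270 bp in DICER1, 4242 bp in PAK2, 3192 bp in CCND1, 2690 bp in TIMP2, 1329 bp in FHL1 and 1257 bp in PAK1. The median over all genes was 1064 bp. A match is a description of the reference, not evidence that NUDT21 was bound there in these cells.

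The authors called peaks in each replicate on its own, 97162 in replicate 1 and 68532 in replicate 2, with a median fold enrichment of 3.95 and 4.23 on the main chromosomes. Fold is the summit height over the level that the peak caller took as control, and −log10 q is its significance after correction for multiple testing. Read totals are unknown, but the deposited fold and p-value of a peak together gave the number of fragments at its summit, with a median of 30 in replicate 1 and 20 in replicate 2. Replicate 1 had more peaks and more fragments at a summit, and 56.4% of its peaks touched a peak of replicate 2, whereas 85.7% of the replicate 2 peaks touched one of replicate 1.

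A promoter peak had its nearest edge within 3000 bp of any annotated transcript start of the gene. A 3′ peak touched an annotated 3′ UTR of a coding transcript by at least 1 bp or had its nearest edge within 1000 bp of the 3′ end of the gene. Of the 8 genes, 7 had a promoter peak in replicate 1 and 4 had one in replicate 2, and the 4 with a peak in both were TIMP2, DICER1, CCND1 and GSK3B. Among all protein-coding genes these shares were 69.8% in replicate 1, 57.9% in replicate 2 and 57.0% in both. A 3′ peak was found for TIMP2 and CCND1 in replicate 1 and for TIMP2 alone in replicate 2, so that 1 of the 8 had one in both. The shares of all genes were 37.4%, 30.9% and 29.4%. DICER1 and GSK3B had promoter peaks in each replicate and a 3′ peak in neither, a pattern held by 21.9% of all genes. VMA21, PAK1 and PAK2 had promoter peaks in replicate 1 and neither kind in replicate 2. Of all genes, 13978 had a promoter peak in replicate 1, and 11425 of them also had one in replicate 2. FHL1 had neither kind in either replicate, as did 28.2% of all genes. Each count set beside such a share differed by fewer than 2 genes from the number that the share of all genes would give among 8.

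**Figure D1:**
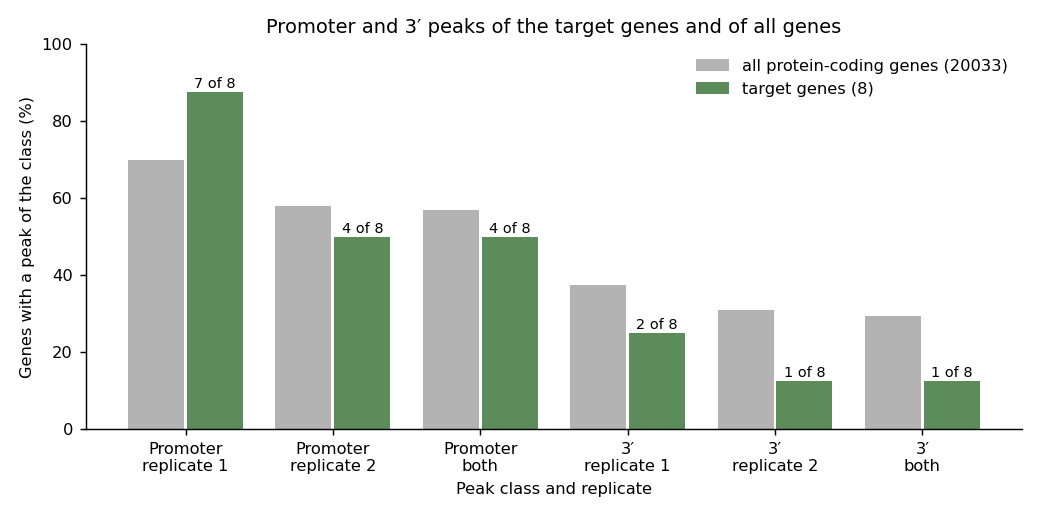
Share of genes (%) with a promoter or a 3′ peak in replicate 1, in replicate 2 and in both, for the 20033 protein-coding genes (grey) and the 8 target genes (green, with the count above each bar). The target genes stood above the grey bar only for promoters in replicate 1 (7 of 8 against 69.8%), and 1 of 8 had a 3′ peak in both replicates against 29.4% of all genes.

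The same peak could count as a promoter peak and as a 3′ peak where the stretches searched overlapped or lay close together. The classes were therefore not separate by definition. Of the 11425 genes whose promoters held peaks in both lists, 49.5% also had a 3′ peak in both, against 1.40% of the 5877 genes without a promoter peak in either. How much of this difference came from peaks counted in both classes was not examined. Among the 4 target genes with promoter peaks in both lists, the count was 1 of 4. The length searched also differed between genes, with the length of the 3′ UTRs and the number of annotated starts. From the shortest to the longest 3′ search, the share of genes with a 3′ peak in both replicates was 28.4%, 42.7%, 30.2%, 25.1% and 20.8% by quintile. Searches of 2001 bp fell in both the first and the second quintile, so the split between these was arbitrary. From the third to the fifth quintile, longer searches did not hold such peaks more often. VMA21, DICER1, PAK2 and GSK3B fell in the quintile of all genes with the longest 3′ search, and none of these 4 had a 3′ peak in both replicates. DICER1, PAK1, GSK3B and FHL1 fell in the quintile with the longest promoter search, where 62.6% of genes had promoter peaks in both, and DICER1 and GSK3B were such genes.

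**Figure D2:**
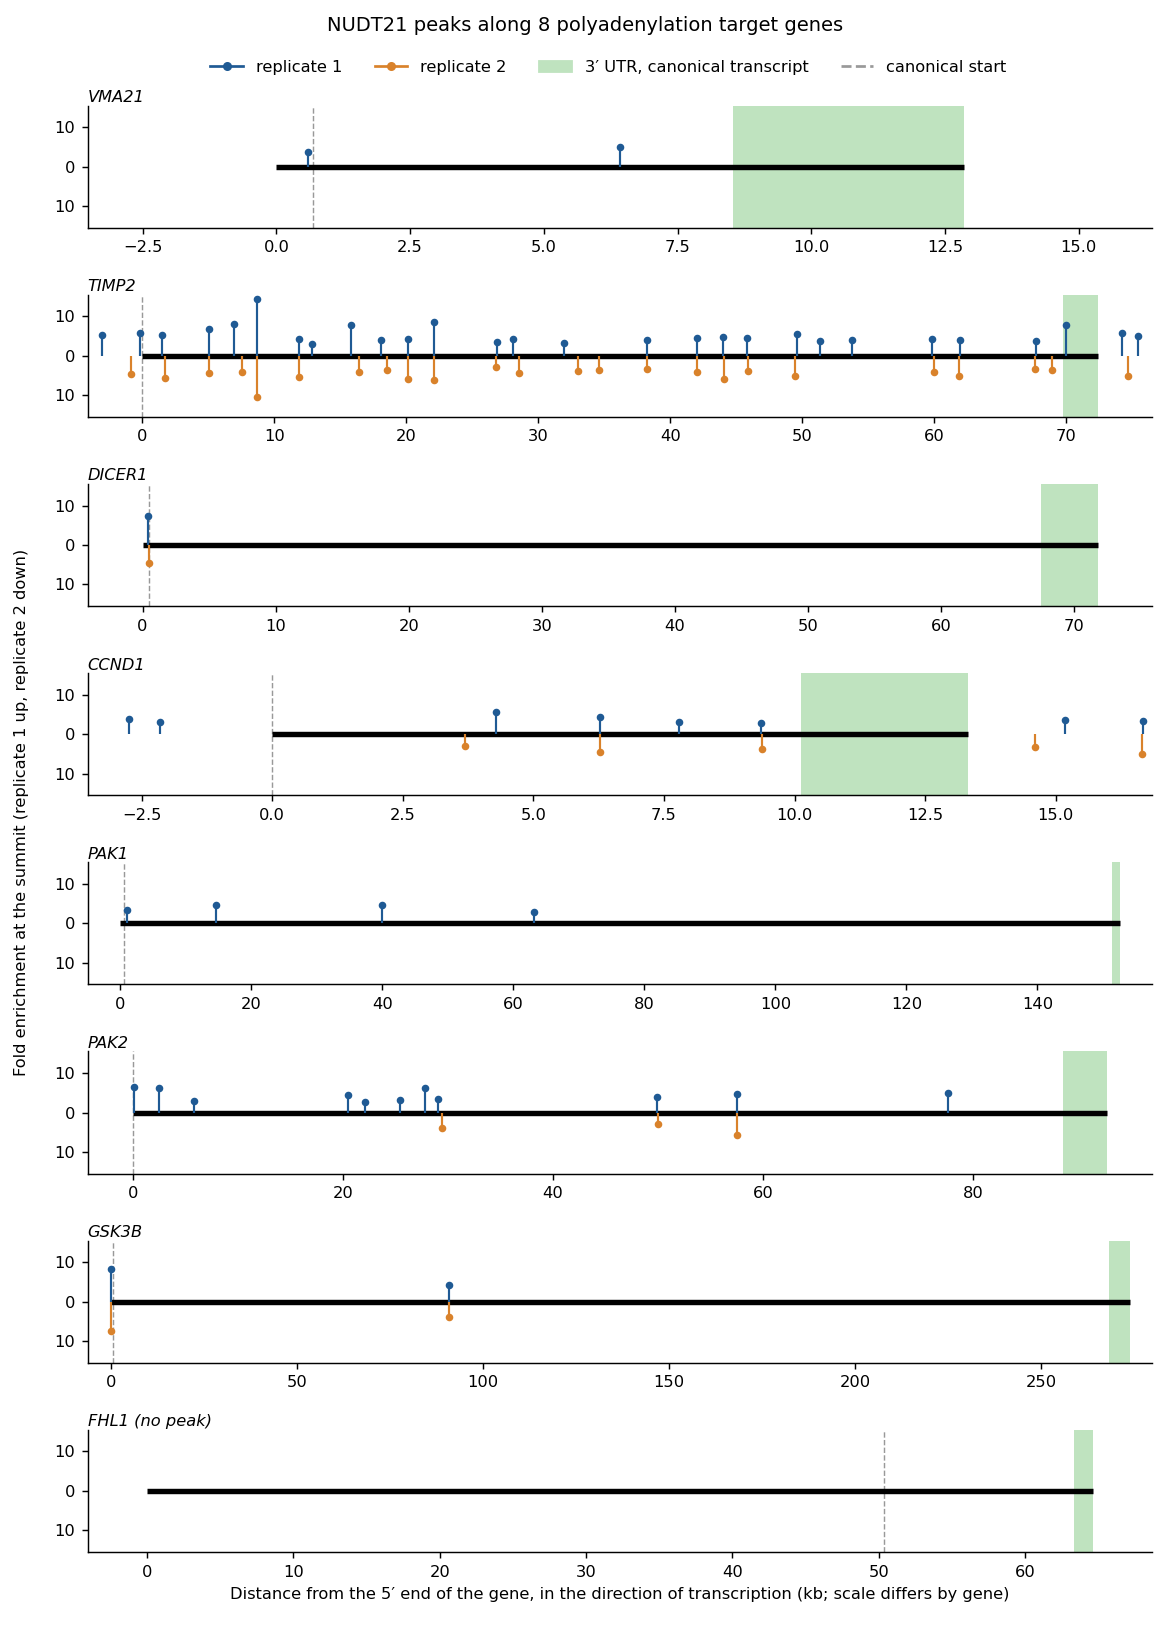
Peaks in or within 3000 bp of each of the 8 genes, by the distance of the summit from the 5′ end of the gene in kb (each gene has its own scale) and by fold enrichment, with replicate 1 upward and replicate 2 downward. The canonical 3′ UTR (green) held a summit only in TIMP2, in replicate 1, where the fold was 7.83, and FHL1 had no peak.

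The first group of genes, described by what they do, are those of proliferation and kinase signalling. GSK3B encodes glycogen synthase kinase 3 beta, which marks beta-catenin and other proteins for degradation (ENSG00000082701.17, chr3:119821321-120094994, minus strand). It had the most significant promoter peak of the 8 in both replicates. In replicate 1 the peak spanned chr3:120093911-120095872, with a fold of 8.42, a −log10 q of 104.8, 209 fragments at the summit and a control level of 22. In replicate 2 it spanned chr3:120093986-120095744, with a fold of 7.37, a −log10 q of 53.8, 109 fragments and a control level of 13.9. The folds stood at percentiles 95.5 and 93.2 of their lists, and the summits of both replicates fell on the same base, 120094913. That base lies 466 bp before the canonical start and 81 bp from another annotated start of the gene. It also lies within 3000 bp of a start of GSK3B-DT, a divergent long noncoding RNA, so the peak cannot be assigned to GSK3B alone.

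Further into GSK3B, a second pair of peaks lay in an intron near an internal annotated start. The fold was 4.19 in replicate 1, from 38 fragments, and 3.83 in replicate 2, from 22 fragments, and the summits were 1 base apart. Over the rest of the gene no peak was found. The nearest peak edge to the 3′ end of GSK3B was 52394 bp away in replicate 1 and 143782 bp away in replicate 2, and 0 bp of its 5467-bp canonical 3′ UTR were covered. GSK3B thus had promoter peaks only, and the peaks covered 0.544% and 0.509% of its length.

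CCND1 encodes cyclin D1, which drives cells through G1 with CDK4 or CDK6 (ENSG00000110092.4, chr11:69641156-69654474, plus strand). Its canonical start had no peak over it in either replicate. The nearest peak edge lay 1825 bp away in replicate 1 and 3664 bp away in replicate 2. The promoter peaks shared by both replicates stood inside the gene, within 3000 bp of internal annotated starts. One of them, chr11:69647007-69647928 in replicate 1 (fold 4.49, 33 fragments) and chr11:69647275-69647947 in replicate 2 (fold 4.61, 19 fragments), had summits 1 base apart. The strongest in replicate 1, chr11:69644106-69646020, had a fold of 5.68 from 31 fragments, and the replicate 2 peak that it touched had a fold of 3.02 from 14 fragments. When only starts of protein-coding transcripts or the canonical start were used, CCND1 no longer had a promoter peak in both replicates. Replicate 1 kept one under these settings and replicate 2 did not.

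At the 3′ side of CCND1 the peaks lay beyond the gene. In replicate 1 a peak at chr11:69655413-69656601 (fold 3.58, 30 fragments) began 939 bp past the annotated end and so counted as a 3′ peak. The replicate 2 peak that it touched, chr11:69655745-69656383 (fold 3.16, 18 fragments), began 1271 bp past the end, outside the limit of 1000 bp. Both lay within 3000 bp of a start of the neighbouring protein-coding gene LTO1, and none of the 3192 bp of the CCND1 3′ UTR were covered. With a limit of 3000 bp in place of 1000 bp, CCND1 had a 3′ peak in both replicates. Peaks covered 31.2% of the gene in replicate 1 and 21.0% in replicate 2, against a median of 2.81% and 1.11% over all genes. These shares stood at percentiles 78.6 and 79.5 of all genes.

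PAK1 and PAK2 encode p21-activated kinases, serine/threonine kinases that act downstream of Rac and Cdc42 on the cytoskeleton and survival. In PAK2 (ENSG00000180370.10, chr3:196739857-196832647, plus strand) the peak at chr3:196739685-196740683 of replicate 1 had a fold of 6.38, a −log10 q of 33.6, 82 fragments and a control level of 11. Its summit lay in the 5′ UTR, 101 bp from the start. A second promoter peak of replicate 1 had a fold of 6.21 from 23 fragments. In replicate 2 the nearest peak edge to that start was 26727 bp away, although introns of the gene held 3 peaks with folds of 3.97, 2.95 and 5.82, each of which touched a replicate 1 peak. PAK2 had 11 peaks in replicate 1, and the nearest peak edge to its 3′ end was 14990 bp away in replicate 1 and 33869 bp away in replicate 2.

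PAK1 (ENSG00000149269.10, chr11:77322017-77474635, minus strand) had weaker peaks. A peak over the canonical start, chr11:77473342-77474355, had a fold of 3.37 from 41 fragments in replicate 1, at percentile 30.7 of its list, and a start of a long noncoding RNA (ENSG00000268635) lies within 3000 bp of it. An internal start carried one with a fold of 2.89 from 46 fragments, and a pair of peaks away from starts had folds of 4.62 and 4.66. Replicate 2 had no peak in PAK1. The nearest peak edge to its 3′ end was 89376 bp away in replicate 1 and 110794 bp away in replicate 2.

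**Figure D3:**
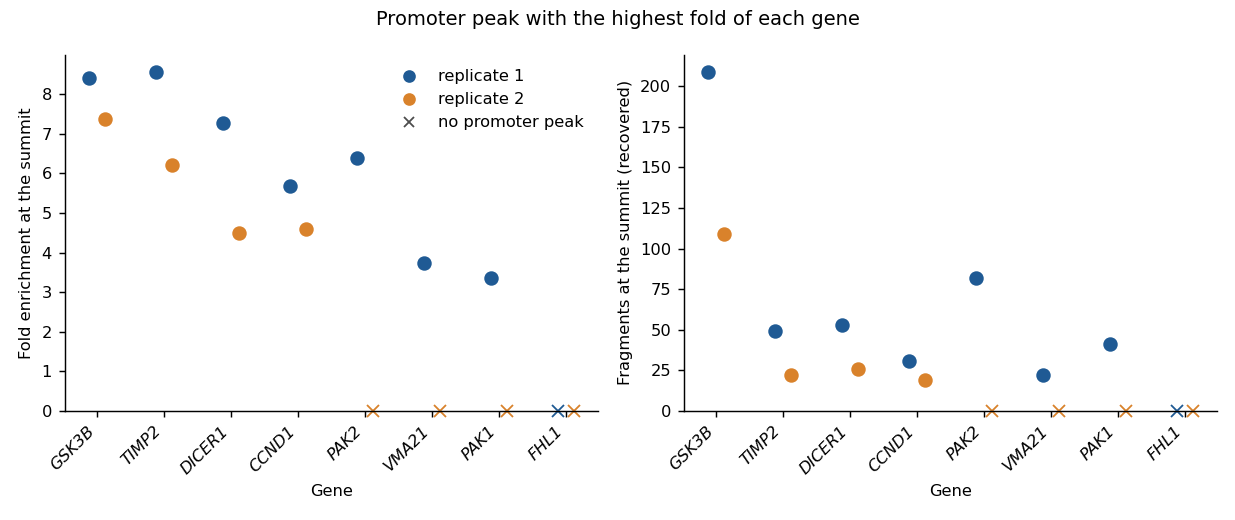
Promoter peak with the highest fold of each gene in replicate 1 (blue) and replicate 2 (orange), by fold enrichment (left) and by recovered fragments at the summit (right), with a cross at 0 where the list had no promoter peak. GSK3B had 209 and 109 fragments, and PAK2, with 82 in replicate 1, had no promoter peak in replicate 2.

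DICER1 encodes the ribonuclease that cuts microRNA precursors to their mature form (ENSG00000100697.17, chr14:95086228-95158010, minus strand). It had exactly 1 peak in each replicate, over the canonical start. In replicate 1 the peak spanned chr14:95156647-95157972, with a fold of 7.28, a −log10 q of 24.7 and 53 fragments. In replicate 2 it spanned chr14:95157294-95157972, with a fold of 4.49, a −log10 q of 8.62 and 26 fragments. Both had the same upstream edge, and in its own list the fold stood at percentile 92.6 in replicate 1 and at 57.3 in replicate 2. A start of DICER1-AS1, a long noncoding RNA of the opposite strand, lies within 3000 bp. Over the remaining gene, including the 4270-bp 3′ UTR, no peak was found, and the nearest peak edge to the 3′ end was 16826 bp and 17010 bp away.

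TIMP2 encodes a secreted inhibitor of matrix metalloproteinases (ENSG00000035862.13, chr17:78852977-78925387, minus strand), and it was the gene in which peaks were spread most widely. Replicate 1 had 25 peaks in the gene and replicate 2 had 22, which covered 48.3% and 38.4% of its length, at percentiles 85.0 and 86.7 of all genes. Counting 3000 bp on either side, TIMP2 held 28 of the 56 peaks of the 8 genes in replicate 1 and 24 of the 35 in replicate 2. Of the 28 and 11 peaks of the other genes, 11 in each replicate touched a peak of the other replicate.

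At the canonical start of TIMP2, replicate 1 had a peak with a fold of 5.67 from 42 fragments, and replicate 2 had one 726 bp before the start with a fold of 4.70 from 22 fragments. The promoter peak with the highest fold was at an internal start, chr17:78901355-78904237 in replicate 1 (fold 8.57, 49 fragments) and chr17:78901370-78904049 in replicate 2 (fold 6.21, 22 fragments). Its summit was base 78903304 in both, within 3000 bp of a start of CEP295NL, a gene that overlaps TIMP2. Higher still was a peak in an intron away from every annotated start, chr17:78914332-78917206 in replicate 1 with a fold of 14.3 and 65 fragments, and chr17:78914612-78917179 in replicate 2 with a fold of 10.5 and 33 fragments. These folds stood at percentiles 99.3 and 98.5 of their lists, and the summits lay 8678 and 8712 bp from the canonical start. The highest fold of any peak in the 8 genes was thus neither in a promoter window nor at a 3′ end.

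TIMP2 was also the gene of the 8 with peaks over a 3′ UTR. In replicate 1, chr17:78854875-78856624 had a fold of 7.83 from 33 fragments (percentile 94.2), with its summit in the 3′ UTR, 2427 bp before the 3′ end. In replicate 2, chr17:78855058-78856624 had a fold of 3.49 from 20 fragments (percentile 26.0), with its summit outside the 3′ UTR. The peaks covered 792 bp and 609 bp of the 2690-bp 3′ UTR, which is 29.4% and 22.6%. The covered stretch was the part next to the stop codon, and the nearest edges lay 1898 and 2081 bp from the 3′ end, where the TGTA shown above is found 59 bases before the end. A start of an antisense long noncoding RNA (ENSG00000267601) lies within the same stretch, so the peak cannot be assigned to the 3′ UTR of TIMP2 alone. Under the rule that a 3′ peak must lie more than 3000 bp from every annotated start, none of the 8 genes had a 3′ peak in both replicates, and the share of all genes was 8.16%. In replicate 2, TIMP2 also lost its 3′ peak when peaks were placed by their summits, and when a −log10 q of at least 5 was required. The −log10 q of that peak was 4.90. The replicate 1 peak, with a −log10 q of 17.6, was kept under both settings, so TIMP2 then had a 3′ peak in replicate 1 alone. A pair of peaks 1720 bp beyond the end, with folds of 5.69 and 5.02, lay outside the limit of 1000 bp.

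VMA21 encodes a chaperone that assembles the vacuolar proton pump in the endoplasmic reticulum (ENSG00000160131.14, chrX:151396515-151409364, plus strand). In replicate 1 it had a promoter peak, chrX:151397018-151397421, with a fold of 3.75, a −log10 q of 5.64 and 22 fragments, and a second peak in an intron with a fold of 5.09 and 21 fragments. A start of a long noncoding RNA (ENSG00000287918) lies within 3000 bp of the promoter peak. Replicate 2 had no peak in VMA21, and its nearest was 626989 bp from the canonical start. The 3′ UTR was not covered in either replicate, and the nearest edge to the 3′ end lay 6177 bp away in replicate 1. VMA21 had the highest density of TGTA of the 8 and 6 copies in its last 100 bases.

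FHL1 encodes a LIM-domain protein known best from skeletal and heart muscle (ENSG00000022267.19, chrX:136146702-136211359, plus strand). It had no peak over its 64658 bp in either replicate, although 30 transcript starts are annotated. The nearest peak edge to its canonical start was 54103 bp away in replicate 1 and 223008 bp away in replicate 2. Over all protein-coding genes, 72.2% held a peak in replicate 1 and 60.8% in replicate 2.

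Base composition of the promoter moved with promoter peaks over all genes, so it is given for the target genes. In the RefSeq promoter sequences (GRCh38.p14, 250 bases before to 50 after the start), 6 of the 8 genes were matched, and TIMP2 and CCND1 were not. The GC content was 75.3% in VMA21, 73.7% in DICER1, 69.3% in GSK3B, 65.7% in PAK2, 62.0% in PAK1 and 44.3% in FHL1, with a median of 63.0% over 15345 promoters. FHL1 was the one in the quintile of promoters with the least GC, where 21.4% had a promoter peak in both replicates, against 57.7% to 70.7% in the other quintiles. FHL1 had 3 CpG in 300 bases, and VMA21 had 50. Each value describes the matched window alone, whereas promoter peaks were sought within 3000 bp of every annotated start. FHL1 has 30 such starts. VMA21 and DICER1 shared the quintile with the most GC, yet the DICER1 promoter held a peak in both replicates and that of VMA21 in replicate 1 alone. The part of base composition in these results was not tested.

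The peaks of VMA21, PAK1 and PAK2 that were missing from replicate 2 were set beside other promoter peaks of replicate 1 of like strength, a comparison chosen after the peaks had been seen. For each gene the most significant promoter peak was taken, with the 1000 promoter peaks nearest to it by rank of −log10 q. Around the VMA21 peak, 47.5% of such peaks touched a replicate 2 peak, and around the PAK1 peak 57.1% did. Promoter peaks of this strength were thus often missing from replicate 2. Around the PAK2 peak the share was 96.1%. Of the 3782 promoter peaks of replicate 1 that were at least as significant as that of PAK2, 91, including its own, did not touch a replicate 2 peak. The peaks of TIMP2, DICER1, CCND1 and GSK3B, which did touch one, had shares of 95%, 92.9%, 76.6% and 99.6% around them.

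**Figure D4:**
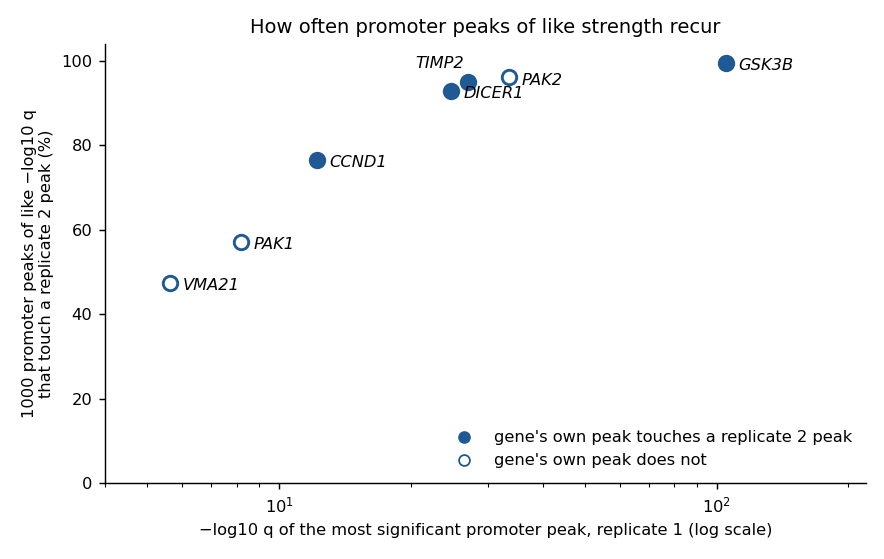
Share (%) of the 1000 replicate 1 promoter peaks of nearest significance that touched a replicate 2 peak, against the −log10 q of the most significant promoter peak of each gene in replicate 1 (log scale), with filled points for genes whose own peak touched one and open points for those whose peak did not. PAK2 was the open point at a share of 96.1%, and VMA21 and PAK1 were the open points at 47.5% and 57.1%.

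Across the 7 genes with a promoter peak in replicate 1, the highest promoter fold of a gene ranged from 3.37 in PAK1 to 8.57 in TIMP2, with a median at percentile 88.4 of the list. Across the 4 genes with one in replicate 2, it ranged from 4.49 in DICER1 to 7.37 in GSK3B, with a median at percentile 73.5. These are the highest of several peaks for some genes, so they describe the genes and are not a comparison with single peaks. TIMP2, GSK3B and DICER1 had the highest folds in replicate 1, while the order in replicate 2 was GSK3B, TIMP2, CCND1 and DICER1. With 2 replicates called separately, no order within these was tested.

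For other genes of the same pathway, the lists below were counted in the same way. Of 9 further genes known as NUDT21 or CFIm targets, 8 held promoter peaks in both replicates, against 57.0% of all genes, and SDC2, a cell-surface proteoglycan, had one in neither. A 3′ peak in both was found in 4 of the 9, against 29.4% of all genes. Among them were IGF1R, the receptor of insulin-like growth factor 1 (highest fold 4.63 in replicate 1 and 4.76 in replicate 2), WDR5, a scaffold of histone H3 methyltransferases (4.51 and 2.96), and CXXC5, a zinc-finger protein of Wnt signalling (3.70 and 4.33). In IGF1R and WDR5, at least 1 such peak in each replicate lay more than 3000 bp from every annotated start, which TIMP2 did not show.

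Of 19 genes of the 3′ end processing machinery, NUDT21 and its partners included, 16 held promoter peaks in both replicates, against 57.0% of all genes. A 3′ peak in both was held by 6 of the 19, near the share of 29.4% over all genes. The lone gene with a promoter peak in neither was CSTF2T, an intronless relative of CSTF2. The 6 were the cleavage and polyadenylation specificity factor genes CPSF1, CPSF3, CPSF4 and WDR33, the scaffold gene SYMPK and the cleavage stimulation factor gene CSTF1. WDR33, whose protein reads the AAUAAA signal, had the highest fold, 18.4 and 16.1. Each replicate had 2 such peaks in WDR33, of which 1 lay more than 3000 bp from every annotated start. Whether that peak was the one with the highest fold was not examined. In CPSF1, CPSF3, CPSF4 and SYMPK, every 3′ peak lay within 3000 bp of an annotated start of some gene. The lone 3′ peak of CSTF1 in each replicate, with folds of 5.95 and 5.80, lay more than 3000 bp from every annotated start. Neither list was tested against the 8 genes or against all genes.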

How the data were processed

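NUDT21 CUT&Tag of 2 biological replicates of J.gamma1 was analysed from 1 peak list per replicate. The members and lists were chosen with earlier results of these data known. Per the methods of the study and the submitters' processing notes, reads were trimmed with fastp, aligned to hg38 with Bowtie2 2.2.5 and cleared of duplicates with Picard, and the authors called peaks per replicate with MACS3 3.0.1. The calling options and any control library are not given in the sources used here. The deposited values were, for each peak, the fold (a ratio) at the summit and the −log10 of the p-value and q-value.

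Peaks on chromosomes 1 to 22, X and Y were joined to GENCODE 44 on hg38 (Python 3.11.15, pandas 2.3.3, pysam 0.24.0). Peak classes follow the distances in the text, and a gene may hold both. The classes were tested on simulated data. Fragments at summits were solved from fold = (pileup + 1)/(control + 1) and a Poisson tail for p, which fitted 99.95% of peaks in replicate 1 and 99.997% in replicate 2. The pileup of replicate 1 was scaled by 0.921. Fragments are given before this scaling and control levels after it, so in replicate 1 their ratio is not the fold. Absolute depth is unknown, so no interval was computed. A percentile of fold is taken over all peaks of 1 deposited list. Both samples form 1 group, so no test between groups was possible, and counts of members stand beside the share of all protein-coding genes. All 8 members are named, and of both further lists those with a 3′ peak in both replicates or a promoter peak in neither, except 1 gene that is not reported here.

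Alternatives changed the promoter distance, the starts used, placement by summit, the −log10 q or number of peaks kept, the 3′ definition, the overlap between replicates and the replicates used.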

Additional observations from a re-analysis of the deposited data

How the results depend on the processing

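Counts of target genes were taken as moved past 1.5 times the value reported, and shares of all genes past the SD between replicates (8.38 percentage points for promoters and 4.61 for 3′ peaks). Of 57 values under other settings, 22 moved and 35 did not. The values reported were 4 genes with promoter peaks in both replicates, 1 with 3′ peaks in both and 2 with promoter peaks alone, beside 57.0% and 29.4% of all genes. Placed by summit, 3′ peaks were left in 0 target genes and 16.8% of all genes. With a −log10 q of at least 5, these were 0 and 24.3%. With 10000 peaks per list, GSK3B was the 1 gene left with a promoter peak (24.3% of all genes), 0 had 3′ peaks (10.05%), and 1 had promoter peaks alone. With 3′ peaks away from all starts, 0 had them (8.16%) and 4 had promoter peaks alone. A gene-end limit of 3000 bp gave 2 genes (37.2%). The 3′ UTR alone gave 22.4% of all genes. A reciprocal overlap of 50% gave 48.0% for promoters and 20.6% for 3′ peaks. By summits, the 3′ UTR alone or a limit of 300 bp, CCND1 joined the genes with promoter peaks alone, giving 3. With replicate 1 or 2 left out, genes with promoter peaks ranged from 4 to 7, with 3′ peaks from 1 to 2 and with promoter peaks alone from 3 to 5, and the shares of all genes ranged from 57.9% to 69.8% and from 30.9% to 37.4%. Replicate 2 had smaller fragment numbers at summits, and its list lacked the promoter peaks of VMA21, PAK1 and PAK2. Among the promoter peaks of replicate 1 nearest to these in significance, 47.5%, 57.1% and 96.1% touched a replicate 2 peak. Absence from that list was not shown to be absence of NUDT21, and the part of fragment numbers in it was not tested. No paired analysis was possible because there is 1 group alone, with nothing to pair its replicates with.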
